A study of Capra hircus with 3 samples.

Results

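The cytochrome P450 (CYP) family of the goat liver was taken as all genes whose symbol starts with CYP and a digit, leaving out CYP7A1 and CYP27A1. That rule gave 54 of the 56 such symbols, among 27271 genes in all. It used names only and no measured value. Liver cells were profiled by droplet 3′ single-cell RNA sequencing in 3 groups of 5 female goats (Capra hircus) aged 3 to 4 years, 15 in all. Con were healthy goats given the LRDS diet, NASH were goats with non-alcoholic steatohepatitis given the HRDS diet, and NASH-T was a group labelled as tolerant of the disease and given the same HRDS diet. The 5 livers of a group were mixed before sequencing, so each group is 1 library with no replicate, and goat, pool and handling cannot be told apart from the group.

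P450 enzymes are heme proteins that insert an oxygen atom into lipophilic compounds, with electrons passed on from reductases. Families 1 to 3 mostly oxidise drugs, toxins and fatty acids, and the CYP4 family mostly hydroxylates fatty acids. The others mostly make or break down sterols, bile acids, steroid hormones, vitamin D and retinoids. In mammalian liver many of the drug-oxidising members are known for a gradient along the lobule, with the most in hepatocytes around the central vein.

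Values are unique molecular identifiers (UMIs), one per captured transcript end, summed over a cell class and divided by all UMIs of that class, on the usual CPM scale. Values given as a series follow the order Con, NASH and NASH-T. Ranges in brackets are exact 95% intervals of counting error only, and with 1 library per group no test between groups was possible. A comparison was made where its 2 sides held 20 UMIs or more together. A gene is called higher where the ratio reached 1.5 and lower where it reached the inverse, in each case with 1 outside the interval. Cell classes were named from marker genes and therefore end in "-like". The hepatocyte-like class took in 5 clusters, with 2886, 4075 and 3133 cells whose median depth was 4194, 3863 and 4019 UMIs. No P450 gene entered the clustering. Of those clusters, cluster 1 (led by FASN) and cluster 2 (led by CACNA2D3) were almost all NASH cells, with 6, 1465 and 29 cells and 26, 1310 and 111 cells. Library pairs shared between 20 and 23 cell barcodes.

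Hepatocyte-like cells put 1.49%, 1.39% and 1.82% of all their UMIs into the 54 genes. The same share was 0.0805%, 0.0798% and 0.0892% in T cell-like cells, which served as a reading of free RNA in the droplets. That share takes in genes higher in T cell-like than in hepatocyte-like cells, such as CYP2J30, so it is not all free hepatocyte RNA. The CYP2C subfamily alone made up 53.5%, 55.3% and 61.1% of the hepatocyte P450 UMIs. All 9 CYP2C genes were measured, and the same holds for both CYP3A genes and all 3 CYP2J genes. By contrast, 3 members had no UMI in any cell (CYP1B1, CYP11A1 and CYP11B1), and 11 more had 1 to 19 UMIs over all cells. Among them are the steroid hormone enzymes CYP19A1 (aromatase) with 15 UMIs and CYP21A1 with 3. The remaining 40 had 20 UMIs or more. Of these, 21 had their highest CPM in hepatocyte-like cells in all 3 libraries, among named classes with at least 50 cells in the library. The 30 genes described one by one in hepatocyte-like cells had at least 100 UMIs there. CYP2J29 with 104 UMIs was just above that limit and CYP2S1 with 86 just below.

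**Figure D1:**
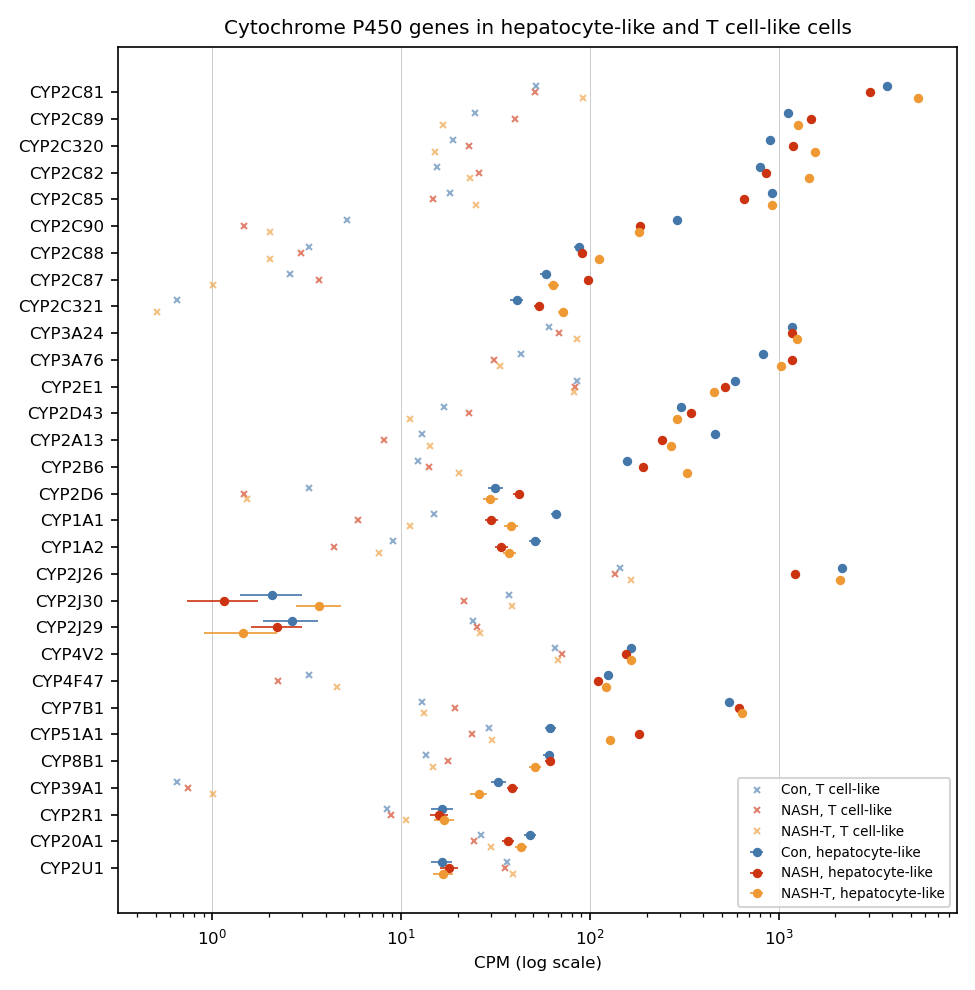
CPM (log scale) of the 30 P450 genes with at least 100 UMIs in hepatocyte-like cells, in Con (blue), NASH (red) and NASH-T (orange). Circles with 95% counting intervals are hepatocyte-like cells and crosses are T cell-like cells, with values of 0 left out; CYP2C81 leads at 3737, 3061 and 5500 CPM, and the crosses of CYP2J30, CYP2J29 and CYP2U1 lie to the right of their circles.

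The drug- and lipid-oxidising CYP2C genes differed widely in CPM, and 5 of them led the other 4 in every library. CYP2C81 was the most abundant P450 of every library, at 3737, 3061 and 5500 CPM. CYP2C89 had 1117, 1494 and 1268 CPM, CYP2C320 had 901, 1189 and 1553 CPM, and CYP2C82 had 795, 859 and 1455 CPM. CYP2C85 had 923, 656 and 920 CPM. The other 4 were lower: CYP2C90 (288, 185 and 183 CPM), CYP2C88 (87.5, 91.1 and 112 CPM), CYP2C87 (58.4, 98.2 and 64.2 CPM) and CYP2C321 (41.0, 54.0 and 71.8 CPM). These genes are close paralogs, and reads that fit several of them could have been split or dropped in the authors' counting, so levels of single CYP2C and CYP3A genes are uncertain. The CYP3A genes, whose products oxidise steroids and a wide range of drugs, had 1178, 1174 and 1253 CPM (CYP3A24) and 831, 1184 and 1029 CPM (CYP3A76).

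Among the other drug and toxin enzymes, CYP2E1, which oxidises ethanol and small solvents, had 591, 519 and 454 CPM. CYP2A13, of the coumarin- and nitrosamine-oxidising CYP2A subfamily, had 460, 240 and 270 CPM. CYP2B6, known as a target of the receptor CAR (NR1I3), had 158, 192 and 326 CPM. The CYP2D genes, whose subfamily oxidises basic amine drugs, were CYP2D43 at 303, 345 and 291 CPM and CYP2D6 at 31.6, 41.9 and 29.7 CPM. The targets of the aryl hydrocarbon receptor, CYP1A1 and CYP1A2, stood lower, at 66.0, 30.1 and 38.2 CPM and at 51.5, 34.0 and 37.5 CPM. Con was the highest library for CYP2E1, CYP2A13, CYP1A1 and CYP1A2, and NASH-T for CYP2B6.

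Of the enzymes for fatty acids, the arachidonic acid epoxygenase CYP2J26 had 2159, 1217 and 2120 CPM, so NASH stood apart from the other libraries. CYP4V2, a fatty acid hydroxylase, had 164, 155 and 166 CPM, and CYP4F47 had 124, 111 and 122 CPM. Among the sterol enzymes, CYP7B1, which hydroxylates oxysterols, had 546, 614 and 639 CPM. CYP8B1, which directs bile acid synthesis to cholic acid, had 60.4, 61.4 and 51.4 CPM, and the oxysterol hydroxylase CYP39A1 had 32.8, 38.9 and 25.7 CPM. CYP51A1, the lanosterol demethylase of cholesterol synthesis, had 61.8, 183 and 128 CPM. The vitamin D hydroxylase CYP2R1 had 16.5, 15.9 and 16.97 CPM. CYP4V2, CYP4F47, CYP8B1 and CYP2R1 differed little between libraries, while CYP51A1 was lowest in Con.

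The level in T cell-like cells, read as free RNA, was a small share of the hepatocyte level for CYP2C81 and a larger one for some others. In T cell-like cells CYP2C81 stood at 1.39%, 1.67% and 1.68% of its hepatocyte CPM. For CYP2E1 the figure was 14.5%, 16.1% and 18.1%, and for CYP1A1 it was 22.5%, 19.6% and 29.2%. ALB, the secreted plasma protein of hepatocytes, had 1985, 2100 and 2689 CPM in T cell-like cells against 3808, 4324 and 5171 CPM in hepatocyte-like cells. CYP2J30 and CYP2J29 went the other way. They had 2.08, 1.16 and 3.68 CPM and 2.64, 2.21 and 1.45 CPM in hepatocyte-like cells, against 37.5, 21.4 and 38.5 CPM and 23.9, 25.1 and 26.3 CPM in T cell-like cells. CYP2U1, a fatty acid hydroxylase, was likewise higher in T cell-like (36.2, 35.5 and 39.0 CPM) than in hepatocyte-like cells (16.4, 17.95 and 16.7 CPM). For these 3 genes the T cell-like level is not used as a reading of free hepatocyte RNA. CYP4V2 stood at 39.8%, 45.9% and 40.85% of its hepatocyte CPM, and CYP20A1 at 54.9%, 65.8% and 69.2%. The part of free RNA in those levels was not tested.

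To read the genes along the lobule, each hepatocyte-like cell was scored by its pericentral minus its periportal genes, with 8 and 9 genes measured and no P450 among them, and the cells of each library were ranked by it into 3 parts of equal cell number (periportal-scoring, middle and pericentral-scoring). Between 6.79% and 8.97% of a library's cells lay within 0.1 SD of a cut. Genes kept out of the score followed it on the pericentral side, with 6 of 8, 7 of 8 and 6 of 7 pericentral check genes higher in the pericentral-scoring part. On the periportal side 4, 3 and 3 of 9 check genes were lower there and none was higher. The whole P450 family took 1.15%, 0.910% and 1.36% of UMIs in the periportal-scoring part and 1.73%, 1.85% and 2.18% in the pericentral-scoring part. The ratio of those 2 parts was 1.499 (1.48 to 1.52), 2.03 (2.01 to 2.05) and 1.61 (1.59 to 1.63).

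Single P450 genes were higher in the pericentral-scoring part far more often than lower. In Con, 11 of 30 measured members were higher, beside 4.12% of all genes measured, and 0 were lower, beside 5.67%. In NASH, 12 of 32 were higher, beside 5.9%, and CYP2D43 alone was lower, beside 6.11%. In NASH-T, 9 of 31 were higher, beside 4.41%, and 0 were lower, beside 6.36%. The median log2 ratio of the members was 0.25, 0.31 and 0.23, against −0.01, −0.02 and −0.03 over all genes. Of the 28 members measured in every library, 9 were pericentral in all 3, 14 were in none, and 5 were called in some.

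**Figure D2:**
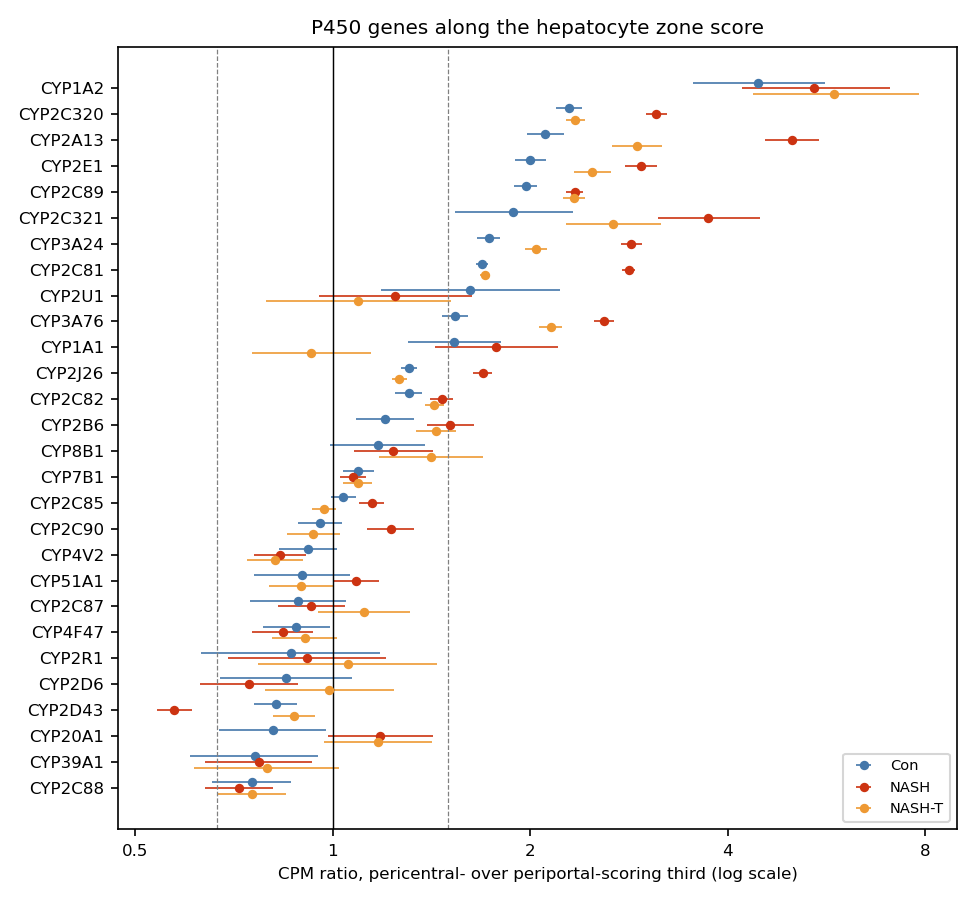
Ratio of CPM in the pericentral-scoring part to that in the periportal-scoring part (log scale) for the 28 P450 genes measured in every library, with 95% counting intervals; Con is blue, NASH red and NASH-T orange. The solid line marks equal levels and the dashed lines the ratio of 1.5 and its inverse; CYP1A2 lies furthest to the right at 4.44, 5.42 and 5.81.

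CYP1A2 had the steepest gradient. It went from 18.5, 10.9 and 11.3 CPM in the periportal-scoring part to 82.4, 59.3 and 65.7 CPM in the pericentral-scoring part. The ratios were 4.44 (3.54 to 5.62), 5.42 (4.20 to 7.07) and 5.81 (4.38 to 7.83). The other 8 were CYP2C320 (2.29, 3.12 and 2.35), CYP2A13 (2.11, 5.01 and 2.91), CYP2E1 (2.00, 2.95 and 2.49), CYP2C89 (1.97, 2.34 and 2.33), CYP2C321 (1.89, 3.74 and 2.68), CYP3A24 (1.73, 2.85 and 2.04), CYP2C81 (1.69, 2.83 and 1.71) and CYP3A76 (1.54, 2.59 and 2.15). With the check genes as the score, or cells thinned to 1000 UMIs, CYP1A2, CYP2C320, CYP2A13, CYP2E1 and CYP2C89 were still higher in all 3 libraries. The other 4 missed the rule in at least 1 library under at least 1 of the 2 settings. With the periportal score genes only, 6 of the 9 were still pericentral in all 3 libraries. With 2 equal parts in place of 3, 7 were. For CYP1A2 in Con the ratio was 2.57 with the check genes as the score.

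Close relatives did not share 1 pattern. Among the 9 CYP2C genes, 4 were pericentral in all 3 libraries, while CYP2C85 (1.04, 1.15 and 0.97), CYP2C90 (0.96, 1.23 and 0.94), CYP2C87 (0.89, 0.93 and 1.12), CYP2C82 (1.31, 1.47 and 1.43) and CYP2C88 (0.75, 0.72 and 0.75) did not pass the rule in any. CYP1A1, the partner of CYP1A2, had a ratio of 1.53 (1.30 to 1.81) in Con and 1.77 (1.43 to 2.21) in NASH, and 0.93 (0.75 to 1.14) in NASH-T. CYP2D43 had 0.82 (0.76 to 0.88), 0.57 (0.54 to 0.61) and 0.87 (0.81 to 0.94), with higher CPM in the periportal-scoring part in every library and the call in NASH only. The sterol enzymes CYP7B1 (1.10, 1.07 and 1.09), CYP51A1 (0.90, 1.09 and 0.89) and CYP8B1 (1.17, 1.24 and 1.41) stayed below the fold needed in every library.

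Of the genes that serve or control P450s, the aryl hydrocarbon receptor AHR had a ratio of 2.98 (2.77 to 3.20), 3.93 (3.64 to 4.26) and 3.44 (3.19 to 3.72). The oestrogen receptor ESR1 was the other of 13 measured regulators to be higher, in every library. ALAS1, the first enzyme of heme synthesis, had 2.20 (2.00 to 2.43), 4.58 (4.11 to 5.11) and 2.94 (2.57 to 3.36), and no other of the 9 or 10 heme genes measured was higher. Of 7 redox partners measured, a list of electron carriers and other P450 partners, FDXR passed the rule in NASH (1.69, 1.16 to 2.47). None did in Con or NASH-T. The reductase POR was absent among the gene symbols and could not be read. Of all genes measured, 4.12%, 5.9% and 4.41% were higher, so the counts of 0 or 1 for redox partners and of 1 for heme genes are near that share, and these lists show no more than the named genes. The receptors NR1I3 (1.09, 1.30 and 1.29) and NR1I2 (0.63, 0.92 and 0.86) stayed uncalled. The oxidase AOX1 (1.71, 3.04 and 2.93) was higher in every library, as a member of the conjugation and oxidation list.

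Between the libraries, the 3 comparisons share samples and are given side by side. In NASH against Con, 36 members were measured in hepatocyte-like cells. Of these, 2 were higher, beside 5.18% of all genes measured, and 7 were lower, beside 11.6%. In NASH-T against Con, 7 of 34 were higher, beside 4.8%, and 4 were lower, beside 8.11%. In NASH-T against NASH, 7 of 37 were higher, beside 8.24%, and 2 were lower, beside 4.91%. The median log2 ratio of the members was 0.01, 0.02 and 0.10, against −0.12, −0.10 and 0.00 for all genes. Scaled so that the median gene has a ratio of 1, the counts became 4 higher and 4 lower in NASH against Con and 8 higher and 2 lower in NASH-T against Con. The share of all genes called under that scaling is not given here. These counts therefore show only how the members' own calls moved.

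**Figure D3:**
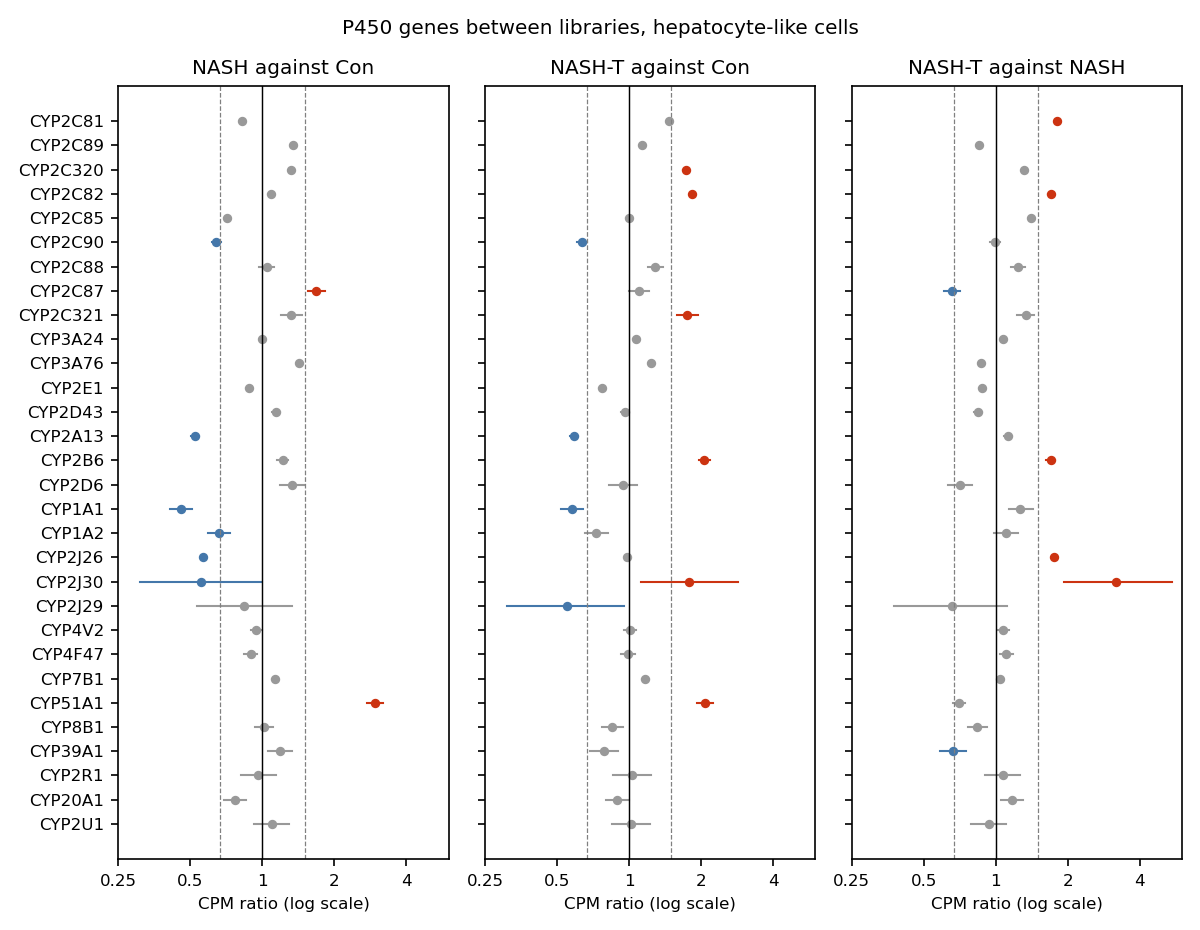
Ratio of CPM between libraries (log scale) in hepatocyte-like cells for the 30 P450 genes with at least 100 UMIs there, with 95% counting intervals. Red points were higher and blue points lower by the rule, grey points neither; the solid line marks equal levels and the dashed lines the ratio of 1.5 and its inverse. CYP51A1 lies to the right in both comparisons with Con, at 2.96 and 2.07.

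CYP51A1 had the largest ratio to Con among these genes in both comparisons. Its 891 UMIs in Con stood against 3633 in NASH and 1946 in NASH-T. The ratio to Con was 2.96 (2.75 to 3.18) in NASH and 2.07 (1.91 to 2.25) in NASH-T. It was alike along the zone score in NASH, with 2.84, 2.69 and 3.43 in the periportal-scoring, middle and pericentral-scoring cells. Restricting the cells to the 3 hepatocyte-like clusters that hold at least 100 cells of each library gave 3.01 and 2.10.

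The aryl hydrocarbon receptor targets were below Con in both HRDS libraries. CYP1A1 had a ratio to Con of 0.456 (0.411 to 0.506) in NASH and 0.578 (0.520 to 0.642) in NASH-T. In the shared clusters the NASH ratio was 0.675, which misses the rule. CYP1A2 had 0.660 (0.594 to 0.734) in NASH, and 0.728 (0.651 to 0.813) in NASH-T, which did not pass. In T cell-like cells CYP1A1 had 14.9, 5.91 and 11.1 CPM, in the same order as in hepatocyte-like cells, and the part of free RNA in its difference was not tested. None of the 4 measured receptor targets outside the family (among them TIPARP, with 48.3, 51.6 and 53.6 CPM) was higher or lower in any of the 3 comparisons. Between 4.8% and 11.6% of all genes were called in a given direction, so 0 of 4 is near that share. Activity of the receptor was not tested. AHR itself had 383, 290 and 386 CPM and was not called.

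CYP2A13 was lower than Con in both libraries, by a ratio of 0.523 (0.504 to 0.543) in NASH and 0.587 (0.564 to 0.610) in NASH-T. In NASH its ratio to Con was 0.286 in the periportal-scoring part, 0.480 in the middle and 0.678 in the pericentral-scoring part, where it missed the rule. The same order held for CYP2C81, with 0.591, 0.783 and 0.990, and for CYP2E1, with 0.676, 0.848 and 0.998. CYP3A76 ran from 1.03 to 1.38 and 1.73, and CYP2C321 from 0.849 to 1.2 and 1.68. For these 5 genes NASH therefore stood lowest against Con among the periportal-scoring cells. Not every member did so. The ratio of the pericentral- to the periportal-scoring part went from 0.82 in Con to 0.57 in NASH for CYP2D43. For CYP2U1 it went from 1.62 to 1.25. Of the periportal-scoring NASH cells 63.5% came from cluster 1, and of those in the pericentral-scoring part 57.1% came from cluster 2, while in Con neither cluster held more than 1.25% of any part. Zone and cluster cannot be told apart in NASH.

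**Figure D4:**
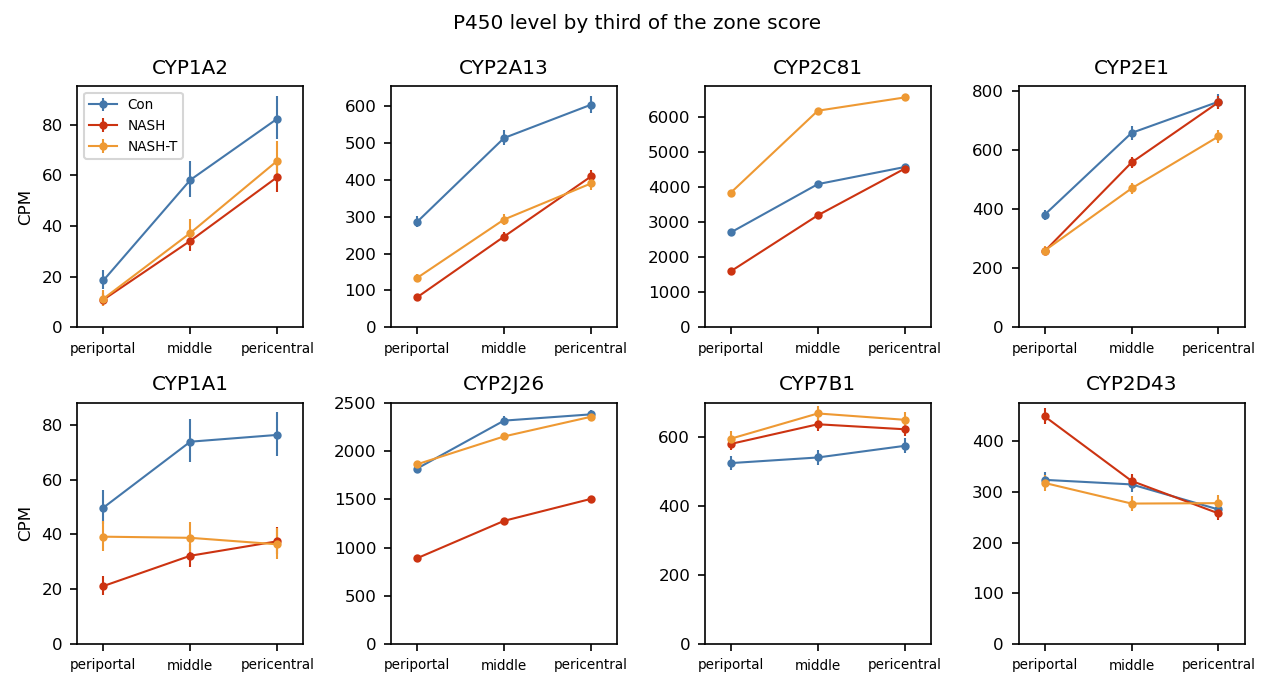
CPM of 8 P450 genes in the periportal-scoring, middle and pericentral-scoring cells of hepatocyte-like cells, on linear axes from 0, with 95% counting intervals; Con is blue, NASH red and NASH-T orange. CYP2C81 in NASH meets Con in the pericentral-scoring part (4518 and 4564 CPM) and lies below it in the periportal-scoring part (1599 and 2704 CPM); CYP7B1 is nearly flat.

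CYP2J26 was lower in NASH alone. Its ratio to Con was 0.564 (0.554 to 0.573) in NASH and 0.982 (0.967 to 0.998) in NASH-T, and NASH-T stood 1.74 times above NASH (1.71 to 1.77). The NASH ratio was 0.489, 0.551 and 0.632 along the 3 parts and 0.621 in the shared clusters. CYP2C90 had a ratio to Con of 0.642 (0.614 to 0.671) in NASH and 0.635 (0.605 to 0.667) in NASH-T, and the former was 0.729 in the shared clusters. CYP2C87 was higher in NASH than in Con, at 1.68 (1.55 to 1.83), and lower in NASH-T than in NASH, at 0.654 (0.605 to 0.706). In the shared clusters both calls were lost, with 1.17 and 0.909.

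Besides CYP51A1 and CYP2J30, 4 drug- and lipid-oxidising members with at least 100 UMIs were higher in NASH-T than in Con. CYP2B6 was higher by 2.06 times (1.96 to 2.17), CYP2C82 by 1.83 (1.79 to 1.87), CYP2C321 by 1.75 (1.58 to 1.94) and CYP2C320 by 1.72 (1.69 to 1.76). All 4 kept the call in the shared clusters, where the ratios were 2.03, 1.79, 1.75 and 1.73. The CAR gene NR1I3 had 79.3, 55.1 and 50.7 CPM. It was lower in NASH-T than in Con, at 0.639 (0.582 to 0.700), beside 8.11% of all genes. CAR activity, and its part in the CYP2B6 difference, was not tested. The summed CYP2C genes stood at 1.40 times Con (1.39 to 1.41) in NASH-T and 0.967 times Con (0.960 to 0.975) in NASH.

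Several differences between NASH-T and NASH were smaller in the shared clusters. CYP2C81 was 1.80 times higher in NASH-T (1.78 to 1.82), CYP2C82 1.69 times (1.66 to 1.73) and CYP2B6 1.70 times (1.63 to 1.77), and in the shared clusters the values were 1.26, 1.26 and 1.10. CYP39A1 was lower in NASH-T, at 0.661 (0.584 to 0.748), and stood at 0.823 in the shared clusters. Ratios of the CYP3A genes also changed with the cells counted. In NASH against Con, CYP3A24 had 0.996 over all hepatocyte-like cells and 0.567 in the shared clusters, and CYP3A76 had 1.43 and 0.853. CYP2B6 and CYP2C321 had 1.22 and 1.32 over all cells in that comparison and 1.85 and 2.41 in the shared clusters. Cluster 2 and cluster 1 hold most NASH hepatocyte-like cells, so these 4 ratios depend on whether those cells are counted. The shared clusters also differ between libraries in their zone mix. Cluster 0, led by the periportal gene HAL, held 810, 559 and 1106 cells. Cluster 16, led by the pericentral gene FMO1, held 1753, 506 and 1490 cells. The part of this mix in the shared-cluster ratios was not tested.

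Some calls rest on few molecules. CYP2G1, known from olfactory tissue, had 22, 9 and 32 UMIs in hepatocyte-like cells, and its ratios were 0.297 (0.120 to 0.670) in NASH against Con and 4.65 (2.17 to 11.1) in NASH-T against NASH. CYP46A1, the cholesterol hydroxylase of neurons, had 6 UMIs in NASH and 15 in NASH-T, with a ratio of 3.27 (1.2 to 10.3). CYP4X1 had 12 UMIs in Con and 28 in NASH-T, with a ratio of 2.21 (1.09 to 4.78). CYP2J29 had 38 UMIs in Con and 22 in NASH-T (0.549, 0.309 to 0.953). CYP2G1, CYP46A1 and CYP4X1 are named here because they passed the call, after their values were seen.

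Counts in the lists of genes that serve or control P450s are small and are read beside the share of all genes called. Of 8 redox partners measured, 0 were higher or lower in any of the 3 comparisons. The reductase POR was not among them, as it was absent among the gene symbols. In NASH against Con, 5.18% of all genes were higher and 11.6% lower, so a count of 0 or 1 is near that share. CYB5A, a listed redox partner, had 613, 422 and 524 CPM. Of 10 heme genes, HMOX1 alone was lower in NASH than in Con, at 0.4999 (0.384 to 0.649), near the 11.6% of all genes. HMOX1 had 10.1, 5.03 and 6.84 CPM in hepatocyte-like cells and 13.6, 8.87 and 15.2 CPM in T cell-like cells. The part of free RNA in its difference was not tested. ALAS1 (0.582, 0.548 to 0.618) and UROS (0.607, 0.425 to 0.861) were lower in NASH-T than in Con, beside 8.11% of all genes. Of 15 regulators measured, NR0B2, a corepressor of bile acid synthesis, was higher in NASH than in Con on 48 and 123 UMIs, at 1.86 (1.32 to 2.65), beside 5.18% of all genes. Of 20 conjugation and oxidation genes, 4 were lower in NASH than in Con, led by GSTA4 at 0.441 (0.381 to 0.510), beside 11.6% of all genes, and 0 were higher, beside 5.18%. In NASH-T against Con 2 were lower, which is near the 8.11% of all genes. In NASH-T against NASH 2 were higher and 1 lower, near the 8.24% and 4.91% of all genes.

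Outside hepatocytes, CYP7B1 was the most abundant P450 of the endothelial-like cells and higher there than in hepatocyte-like cells. Its level was 2783, 4313 and 3386 CPM in 364, 546 and 1014 endothelial-like cells. With each cell thinned to 1000 UMIs, 83.6%, 90.7% and 84.9% of endothelial-like cells held a UMI of it, against 1.55%, 0.822% and 1.26% of T cell-like cells. Without thinning, the shares were 86.5%, 90.7% and 89.8%, and 1.56%, 2.00% and 1.78%, at median depths of 1715, 1440 and 1698 UMIs and of 1164, 1009 and 1218 UMIs. In cluster 10, led by BMPER, STAB2 and CLEC9A, CYP7B1 had 2895, 4640 and 3502 CPM, and in cluster 3, with VWF among its leading genes, it had 2376, 2349 and 2669 CPM. The higher value of NASH was thus seen in cluster 10 and not in cluster 3. Over all endothelial-like cells, the ratio of NASH to Con was 1.55 (1.47 to 1.64). Stellate or fibroblast-like cells had 809, 628 and 633 CPM, and 1437, 1258 and 1206 CPM in cluster 19 among them.

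**Figure D5:**
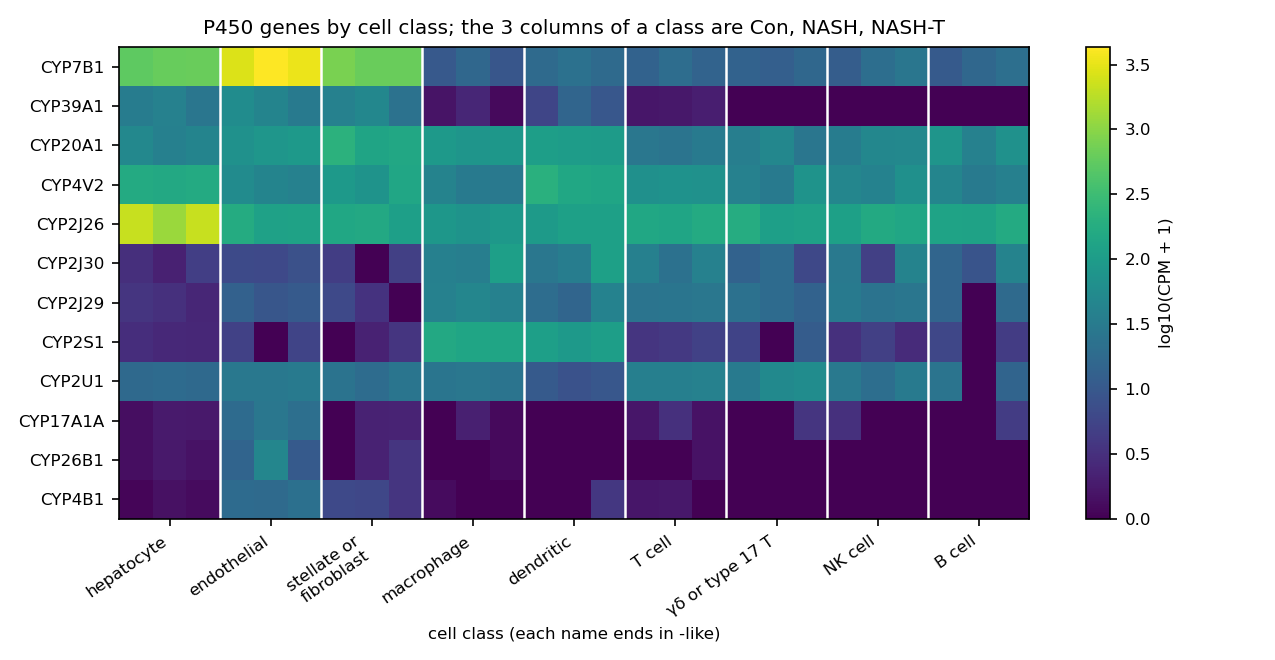
Level of 12 P450 genes, as log10 of CPM plus 1 by colour, in 9 cell classes, each with a column for Con, NASH and NASH-T from left to right. The brightest tiles are CYP7B1 in endothelial-like cells (2783, 4313 and 3386 CPM), and CYP2S1 is bright in the macrophage-like and dendritic-like columns only.

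The endothelial-like cells also had the highest level of 3 rarer members. CYP17A1A, of the steroid hydroxylases, had 17.8, 26.2 and 20.3 CPM, with all 13, 25 and 40 of its UMIs in cluster 10. CYP4B1, better known from lung, had 17.8, 16.8 and 21.3 CPM. CYP26B1, which breaks down retinoic acid, had 10, 43 and 19 UMIs, or 13.7, 45.1 and 9.62 CPM, and was densest in cluster 3 (44.2, 103 and 40.1 CPM). NASH was the highest library for CYP26B1 in both clusters, with 5.25, 35.5 and 4.70 CPM in cluster 10. The level of CYP39A1 in endothelial-like cells was 57.5, 41.9 and 30.4 CPM, and in cholangiocyte-like cells 113, 122 and 107 CPM.

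Among the 9 classes plotted, CYP2S1, a largely extrahepatic enzyme, was highest in macrophage-like cells. The 20, 14 and 15 cells of a dividing class, whose second-best marker set was that of macrophages, had 147, 216 and 117 CPM on 15, 12 and 7 UMIs. CYP2S1 had 154, 136 and 137 CPM in macrophage-like cells and 111, 87.8 and 109 CPM in a dendritic-like cluster, against 2.01, 1.66 and 1.58 CPM in hepatocyte-like cells. That dendritic-like cluster had 3 dendritic and 5 macrophage markers at 2-fold, so its name is weak. After thinning, 13.6%, 12.2% and 14.1% of macrophage-like cells held a UMI of CYP2S1, against 0.258%, 0.164% and 0.420% of T cell-like cells. Without thinning, these were 34.1%, 28.4% and 31.8%, at median depths of 2779, 2373 and 2837 UMIs, and 0.328%, 0.334% and 0.548%. The 3 libraries lay close together for this gene over the whole macrophage-like class. In cluster 8 of that class CYP2S1 had 112, 52.7 and 54.7 CPM, on 67, 3 and 16 UMIs.

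CYP2J30 differed between libraries in the same cells. In macrophage-like cells it had 135, 95 and 466 UMIs, or 37.4, 35.3 and 113 CPM, so NASH-T stood alone over the whole class. Over that class the ratio of NASH-T was 3.01 (2.48 to 3.68) to Con and 3.19 (2.56 to 4.03) to NASH. Cluster 8 of the class, with 183, 22 and 78 cells, did not follow this order. CYP2J30 had 28.4, 105 and 6.84 CPM there, on 17, 6 and 2 UMIs. In the dendritic-like cluster it had 26.4, 34.1 and 117 CPM, and in T cell-like cells 37.5, 21.4 and 38.5 CPM. In hepatocyte-like cells the 30, 23 and 56 UMIs gave a ratio of 1.77 (1.12 to 2.86) to Con and 3.19 (1.93 to 5.43) to NASH, at levels more than 10 times below those of macrophage-like cells in every library. Free RNA from other cells was not tested as a source of those UMIs. Its relative CYP2J29 had 38.5, 45.3 and 38.0 CPM in macrophage-like cells, with no such difference. A single goat in the NASH-T pool cannot be told apart from the group.

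Among the 9 classes plotted, the orphan enzyme CYP20A1 was highest in stellate or fibroblast-like cells, at 215, 134 and 151 CPM, with a ratio of NASH to Con of 0.623 (0.477 to 0.814). Its level was 68.5, 80.7 and 87.6 CPM in endothelial-like and 48.3, 37.1 and 43.2 CPM in hepatocyte-like cells. CYP4V2 had 87.9, 73.6 and 139 CPM in stellate or fibroblast-like cells, and within cluster 19 it had 203, 198 and 427 CPM. In the dendritic-like cluster CYP4V2 had 200, 143 and 137 CPM, near its hepatocyte level.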

How the data were processed

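Per the labels' protocols, liver was minced, digested with trypsin and DNase, strained and freed of red cells before droplet capture. Cell Ranger 7.0.0 is named in the submitters' processing notes. The deposited values are UMI counts per gene and barcode. No genome build or annotation is named (not given in the sources used here), and no coordinates or sequences are printed. Among 27271 genes, 9958 had no symbol beside their identifier and could not be searched for P450 names.

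The libraries held 7485, 8731 and 9375 barcodes with 25506238, 31195014 and 29572158 UMIs. Cells needed 500 UMIs, 200 genes and at most 20% mitochondrial UMIs, and Scrublet (scanpy 1.11.5, expected rate 0.06) removed 284, 342 and 459 doublets, leaving 7200, 8389 and 8914 cells. On 1979 variable genes, with P450 and mitochondrial genes left out, 30 components, 15 neighbours and Leiden resolution 0.8 gave 27 clusters, named from 16 marker sets (124 of 145 names found). Clusters 11 and 23 mixed hepatocyte with other markers and were left out of every class.

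Counts were summed per library and class. Level intervals are exact Poisson and ratio intervals exact conditional binomial; shares carry exact binomial intervals in the tables. All cover counting error only. The zone score was the mean within-library z of log1p(UMIs per 10000) of pericentral genes (LGR5, FMO1, TBX3, SLC1A2, RGN, LHPP, SLC22A3, GSTM3) minus that of periportal genes (HAL, ASS1, CPS1, PCK1, SDS, GLS2, FTCD, UROC1, HSD17B13), each with at least 50 UMIs. Members with at least 100 UMIs in hepatocyte-like cells were described singly, as were members with at least 30 UMIs in another class at a CPM at least 2 times higher. The calling script was tested on simulated counts. The members, gene lists and rules were chosen with earlier results of these data known. CYP46A1, CYP2G1 and CYP4X1 were named because they passed the call, outside that rule.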

Additional observations from a re-analysis of the deposited data

How the results depend on the processing

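No paired analysis was possible because each group is 1 library and the labels give no replicate numbers. Leaving out a replicate was not possible either. Asking for a ratio of 2 left 1 higher and 2 lower P450 genes in NASH against Con, 3 and 0 in NASH-T against Con, and 3 and 0 in NASH-T against NASH. Scaling to the median gene gave 4 higher and 4 lower in NASH against Con and 2 lower in NASH-T against Con. The shared clusters gave 4 higher in NASH against Con and 0 lower in NASH-T against NASH, and weighting every cell alike gave 5 higher in NASH against Con. In NASH-T against NASH, thinning cells to 1000 UMIs gave 4 higher and 1 lower, and a minimum of 100 UMIs gave 4 higher. CYP2J30 in NASH against Con reversed to 1.22 after thinning; the cause was not tested.

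Along the zone score, Con had 7 higher members with 2 equal parts in place of 3, 7 with the periportal score genes only, 6 with the check lists as score and 7 after thinning, which also gave 1 lower. In NASH the 1 lower member became 0 with 2 parts, with the pericentral score genes only and after thinning, and 2 in the shared clusters. In NASH-T 2 parts gave 1 lower. The causes were not tested. Leaving out the shallow hepatocyte-like cluster (median 921 UMIs), an alternative added after seeing the data, left the 9 pericentral genes and gave 2 higher and 6 lower members in NASH against Con. The other 98 values of member counts were within 1.5 times their main value. The share of all genes called under each alternative setting is not given here, between libraries or along the zone score. These counts therefore do not set the members against genes in general.

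With 1 library per group, differences between goats cannot be separated from differences between groups, whatever the depth. Genes with under 20 UMIs could not be read.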

Other observations

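The hepatocyte-like cluster of shallow cells (cluster 4, with 291, 235 and 397 cells in Con, NASH and NASH-T) differed from the other hepatocyte-like clusters in its P450 levels. CYP2C81 stood at 0.572, 0.686 and 0.663 of its CPM in those clusters. CYP2E1 stood at 1.14, 1.49 and 1.49, CYP8B1 at 1.47, 1.38 and 1.93, and CYP1A1 at 1.24, 2.297 and 1.58. The leading genes of this cluster were DIAPH3, APOE, APOA2, APOC4, AHSG, VTN, IFI6, COX1, CENPF and COX2. APOE, APOA2 and AHSG encode secreted proteins, and COX1 and COX2 are mitochondrial genes. DIAPH3 and CENPF were also among the leading genes of the dividing class. The P450 genes given here were picked after their values were seen.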
